A study of Mus musculus with 6 samples.

Results

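The GIMAP genes encode a family of small GTPases, the GTPases of immunity-associated proteins, that are known from lymphocytes and, for several of them, from endothelium. The members described here are Gimap1, Gimap3, Gimap4, Gimap5, Gimap6, Gimap7, Gimap8 and Gimap9, which are 8 of the 35976 genes in the count table. They were found by their gene symbols. The family was chosen from the comparison of sST2-KO with WT brown adipose tissue (BAT), in which Gimap3 was among the clearest rises. The differences between these groups in the 8 members are therefore given as a description, with no p-value. All 8 members passed the filter on low counts.

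BAT was taken from 3 WT and 3 sST2-KO mice of a C57BL/6J background, which were 10 weeks old. In all 6 mice the nerves of the BAT had been cut, and the mice were exposed to 10 °C for 8 h before collection. The sST2-KO mice carry a deletion made by CRISPR/Cas9 in Il1rl1, which removes the stop codon of the soluble receptor sST2. The WT mice were littermates, and no group with intact nerves or kept without cold was analysed here. The labels number 3 libraries of whole BAT in each group without naming the animals, so the p-values measure the spread between these libraries.

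GIMAP proteins share a GTP-binding domain of the AIG1 type, and several are anchored by their C-terminal end in membranes of organelles. In lymphocytes they are known for the survival of resting cells. Loss of Gimap5 depletes T cells, and loss of Gimap1 depletes mature T and B cells. The genes lie side by side in a cluster, and they arose from each other by duplication.

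The libraries held between 8159442 and 12874809 counts, and TMM factors lay between 0.825 and 1.14. Il1rl1, the gene that was targeted, had 19, 19 and 6 counts in WT libraries 1 to 3, and 55, 69 and 142 counts in sST2-KO libraries 1 to 3. These counts add up the soluble form and the membrane receptor, so they do not check the genotype. The summed level of 10 brown adipocyte markers was 19460 to 29282 CPM in WT and 4324 to 8857 CPM in sST2-KO libraries. That of 10 skeletal muscle markers was 1308, 22.8 and 8.01 CPM in WT libraries 1 to 3, and between 3686 and 15763 CPM in sST2-KO libraries. The part of muscle RNA in the results below was not tested.

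The cluster lies on chromosome 6 of GRCm39, from 48624143 to 48747826, and spans 123.7 kb. In order along the chromosome it holds Gimap8, Gimap9, Gimap4, Gimap6, Gimap7, Gimap1, Gimap5 and Gimap3. Gimap6 and Gimap3 lie on the minus strand and the other 6 members on the plus strand. Gimap3 runs from 48741395 to 48747826 and closes the cluster. Gimap7 runs from 48695555 to 48701570, Gimap4 from 48661479 to 48670389 and Gimap6 from 48678349 to 48685339. Gimap5 runs from 48723104 to 48731144, Gimap1 from 48715947 to 48720843, Gimap8 from 48624143 to 48637826 and Gimap9 from 48653049 to 48656137.

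The stretch before the start of 4 members is shown because all 8 had a higher mean in sST2-KO libraries. Gimap3 and Gimap7 had the widest differences, Gimap4 was the most abundant member, and Gimap5 is the member that shares stretches of transcript with Gimap3. The sequences come from RefSeq promoters of GRCm38.p6 and were each found once on chromosome 6 of GRCm39, whose coordinates are given. They are written 5′ to 3′ on the strand of the gene and end before the first annotated base of the gene. Capitals mark the letters AGGAAG, a core that ETS factors bind, and TGTGGT, a core that RUNX factors bind, on either strand.
Gimap3, chr6:48747827-48748035, minus strand: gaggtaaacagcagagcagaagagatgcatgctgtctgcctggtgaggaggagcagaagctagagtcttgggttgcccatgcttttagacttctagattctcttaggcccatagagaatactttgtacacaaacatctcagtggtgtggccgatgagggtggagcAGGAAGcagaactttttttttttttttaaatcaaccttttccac
Gimap7, chr6:48695305-48695554, plus strand: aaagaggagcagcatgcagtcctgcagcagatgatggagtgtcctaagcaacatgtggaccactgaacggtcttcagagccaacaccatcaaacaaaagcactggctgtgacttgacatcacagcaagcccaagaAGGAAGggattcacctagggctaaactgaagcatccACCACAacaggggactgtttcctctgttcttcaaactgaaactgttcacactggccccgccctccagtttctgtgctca
Gimap4, chr6:48661262-48661478, plus strand: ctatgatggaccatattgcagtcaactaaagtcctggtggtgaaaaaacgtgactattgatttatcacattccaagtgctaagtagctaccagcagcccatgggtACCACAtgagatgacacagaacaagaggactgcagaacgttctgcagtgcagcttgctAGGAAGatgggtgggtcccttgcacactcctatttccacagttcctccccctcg
Gimap5, chr6:48722881-48723103, plus strand: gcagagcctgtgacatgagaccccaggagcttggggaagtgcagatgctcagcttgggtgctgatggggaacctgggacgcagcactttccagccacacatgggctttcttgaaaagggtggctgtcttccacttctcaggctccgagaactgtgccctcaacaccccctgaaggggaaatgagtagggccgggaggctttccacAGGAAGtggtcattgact

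In the 250 bases before a RefSeq start, AGGAAG stood in 7 of 9 windows of the members, Gimap8 having 2 windows, against 29.5% of 32851 mouse windows of the same length. The windows with it belonged to every member except Gimap6. TGTGGT stood in 3 windows, those of Gimap1, Gimap4 and Gimap7, against 14% of all windows. TTCNNNGAA, the core bound by STAT factors, stood in 2 windows, those of Gimap6 and Gimap8 (7.02% of all windows), and the FOXO core TGTTTAC in that of Gimap3 (3.17%). The interferon-stimulated response element (2.98% of all windows), AGATAA for GATA factors (9.99%), the NF-kB motif (1.21%) and CACACCC for KLF factors (6.93%) stood in 0 of the 9. These are matches of letters on both strands, which may overlap each other. They do not show that a factor binds.

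Gimap3, which encodes a membrane-anchored GTPase of T cells, had 8.21, 8.95 and 11.3 CPM in WT libraries 1 to 3, and 50.9, 45.3 and 58.5 CPM in sST2-KO libraries 1 to 3. Every sST2-KO library lay above every WT library, and the spread within each group was small beside the gap. The group means were 9.5 ± 1.64 CPM (SD, n = 3) and 51.6 ± 6.59 CPM (SD, n = 3), and the fitted fold change was 5.44 (log2 fold change 2.44, standard error 0.21).

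Gimap7, a GTPase that is known to stimulate the GTP hydrolysis of other GIMAP proteins, was the least abundant member in WT BAT. It had 22, 12 and 10 counts in WT libraries 1 to 3, and 154, 113 and 136 counts in sST2-KO libraries 1 to 3. This corresponds to 2.05, 1.13 and 1.23 CPM in WT and 10.7, 13.4 and 13.4 CPM in sST2-KO libraries. The groups did not overlap. With a fold change of 8.39 (log2 fold change 3.07, standard error 0.33), Gimap7 had the largest difference of the 8 members, at the lowest counts.

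Gimap1 and Gimap5, both required for lymphocyte survival, differed less. The level of Gimap1 was 8.12, 6.41 and 4.68 CPM in WT libraries 1 to 3, and 14, 14 and 15.8 CPM in sST2-KO libraries 1 to 3. That of Gimap5 was 13.7, 10.1 and 8.26 CPM in WT and 22.2, 22.8 and 19.2 CPM in sST2-KO libraries. Neither gene overlapped between the groups. The log2 fold change was 1.18 (standard error 0.27) for Gimap1 and 1.00 (standard error 0.25) for Gimap5.

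Gimap4 and Gimap6 were the abundant members. Gimap4, a GTPase known for its role in T cell death, had 133, 74.3 and 67.7 CPM in WT libraries 1 to 3, and 124, 193 and 124 CPM in sST2-KO libraries 1 to 3. Here WT library 1 lay above 2 of the 3 sST2-KO libraries, so the groups overlapped. Gimap6, which is linked to autophagy through GABARAP-type proteins, had 116, 85.4 and 67.7 CPM in WT and 157, 182 and 121 CPM in sST2-KO libraries. Its groups did not overlap, with a gap of few CPM between WT library 1 and sST2-KO library 3. The log2 fold change was 0.68 (standard error 0.32) for Gimap4 and 0.77 (standard error 0.26) for Gimap6.

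Gimap8, which is unusual in holding several GTPase domains in 1 protein, and Gimap9 were the members with the smallest differences. Gimap8 had 38.6, 24.4 and 27.4 CPM in WT libraries 1 to 3, and 36.8, 46.2 and 35 CPM in sST2-KO libraries 1 to 3. Gimap9 had 14.6, 8.39 and 8.63 CPM in WT and 17.6, 17.4 and 13.3 CPM in sST2-KO libraries. In both genes WT library 1 lay inside the range of the sST2-KO libraries. Their log2 fold changes were 0.38 (standard error 0.23) and 0.61 (standard error 0.29). The highest WT value was in library 1 for each member except Gimap3, whose highest WT value was in library 3.

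**Figure D1:**
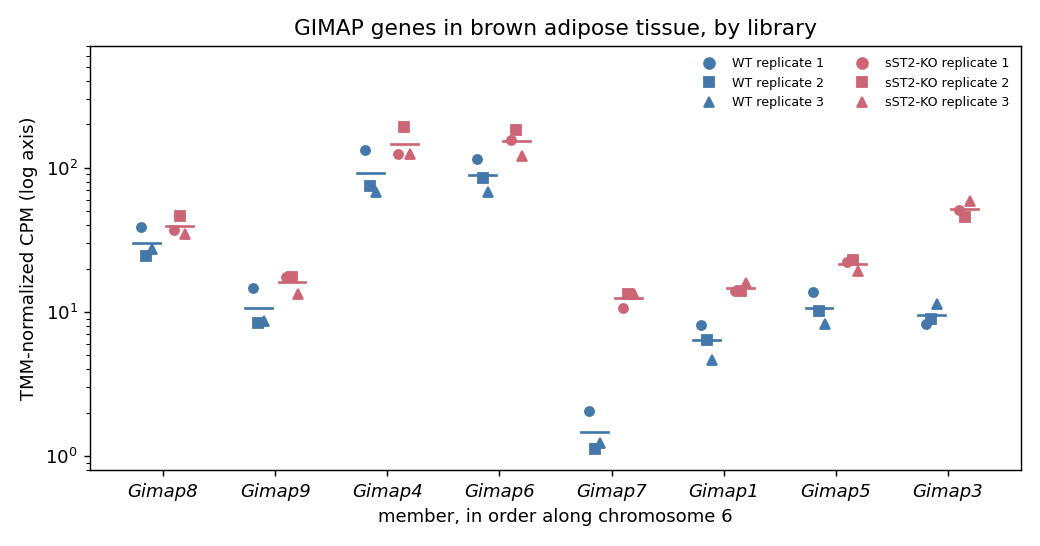
Level of each GIMAP gene in every library, as TMM-normalized CPM on a log axis, with the genes in order along chromosome 6; symbols are libraries and horizontal lines are group means. Gimap3 and Gimap7 stand apart in having WT means of 9.5 and 1.47 CPM and sST2-KO means of 51.6 and 12.5 CPM, while the groups of Gimap4, Gimap8 and Gimap9 overlap.

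All 8 members had a positive log2 fold change, with a median of 0.89, against 0.034 for the 14542 genes tested. A gene was called where edgeR's quasi-likelihood test gave a Benjamini-Hochberg value under 0.05 at more than 2-fold. The members called higher were Gimap1, Gimap3 and Gimap7, 3 of 8, where 9.04% of all genes tested were called higher. Without the minimum fold Gimap5 was called too, and 10.5% of all genes were higher. In 5 members every sST2-KO library lay above every WT library, as in 21.8% of all genes. Since this contrast chose the family, nothing is read from these counts. With scaling by total counts, which moved the median of all genes to 0.29, Gimap5 and Gimap6 were also called and the median of the members was 1.12. Gimap1 was no longer called without WT library 2, WT library 3, sST2-KO library 2 or sST2-KO library 3. Without WT library 3 Gimap7 was lost as well and Gimap3 alone was called, in a fit that called 36 genes higher in all. Gimap5 was called without WT library 1.

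Levels of different members are compared per kb of exonic length. In WT BAT Gimap4 had 40.5 ± 15.8 CPM per kb (SD, n = 3) and Gimap6 23.3 ± 6.33 CPM per kb (SD, n = 3). They were followed by Gimap8 with 7.94, Gimap9 with 5.93, Gimap3 with 2.65, Gimap5 with 2.51, Gimap1 with 1.87 and Gimap7 with 0.633 CPM per kb. The WT ranges of Gimap4 and Gimap6, of Gimap8 and Gimap9, of Gimap3 and Gimap5 and of Gimap5 and Gimap1 overlapped, so these neighbours in the order did not differ beyond their spread between libraries. Within each of the 3 WT libraries, however, Gimap4 lay above Gimap6, Gimap8 above Gimap9 and Gimap5 above Gimap1, while Gimap3 lay above Gimap5 in 2 of 3. In sST2-KO BAT the order began with Gimap4 (65 ± 17.8 CPM per kb, SD, n = 3) and Gimap6 (39.9 ± 8.06). Gimap3 had moved to the third place with 14.4 ± 1.84 CPM per kb, above Gimap8 in every library. Gimap7, with 5.39 ± 0.667 CPM per kb, and Gimap5, with 5.03 ± 0.456, overlapped in range. Gimap1 had the lowest mean, with 4.28 ± 0.303, but its range overlapped that of Gimap5, which lay above it in 2 of 3 libraries.

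The make-up of the family differed accordingly. Gimap3 supplied 2.46%, 4.09% and 5.76% of the counts of all members in WT libraries 1 to 3, with 95% Wilson intervals of 2 to 3.02%, 3.36 to 4.97% and 4.72 to 7.01%. In sST2-KO libraries 1 to 3 it supplied 11.8%, 8.48% and 14.6%, with intervals of 11 to 12.6%, 7.7 to 9.33% and 13.6 to 15.8%. These intervals cover counting error only. The share of Gimap7 was 0.586 ± 0.0604% (SD, n = 3) in WT and 2.78 ± 0.502% (SD, n = 3) in sST2-KO BAT. The share of Gimap8 was 12.2 ± 1.48% in WT and 8.63 ± 0.128% in sST2-KO BAT (SD, n = 3 each).

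Members also differed in how they varied inside the groups. After the group means were removed, the log2 CPM values of the 6 members other than Gimap3 and Gimap7 were correlated with each other by a median Pearson r of 0.84 over 15 pairs (range 0.46 to 0.95). Gimap3 ran against them, with an r of -0.96 with Gimap6 and -0.89 with Gimap5. Gimap7 varied with the 6 members, with an r from 0.56 (Gimap6) to 0.84 (Gimap4 and Gimap8), and had an r of -0.43 with Gimap3. Each r is over the same 6 libraries, which share their depth and scaling, and is a description.

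Lymphocytes, T cells among them, and endothelial cells are the sources that the family is known from. Markers of T cells and of endothelium were measured in the same libraries, and the T cell list does not cover other lymphocytes. In bulk tissue, fewer cells of a type and less RNA per cell cannot be told apart. All gene lists used here were chosen with earlier results of these data known, so their calls are a description. Of 16 T cell markers, 13 were matched in the table and tested, and 12 were called higher in sST2-KO BAT and 0 lower, and the median log2 fold change was 3.00. Lck, the kinase that starts T cell receptor signaling, had 4.65 ± 1.04 CPM in WT and 37.5 ± 1.91 CPM in sST2-KO BAT (SD, n = 3 each, edgeR quasi-likelihood adjusted p = 0.00596). The exception was Cd4, with a log2 fold change of 1.23, named after its value was seen. Of 16 endothelial markers, 1 was called higher (Emcn) and 2 lower (Kdr and Sox18), all 3 named after their values were seen, where 7.1% of all genes were called lower. Their median log2 fold change was -0.0044. With total counts the median was 0.25, and 2 were called higher and 0 lower. Cdh5, the cadherin of endothelial junctions, had 393 ± 88.6 CPM in WT and 384 ± 148 CPM in sST2-KO BAT (SD, n = 3 each). The log2 fold changes of Gimap3 and Gimap7 lay inside the range of the T cell markers. Those of the other 6 members, from 0.38 to 1.18 (median 0.73), lay below every T cell marker, Gimap1 only just below Cd4. They also lay inside the range of the endothelial markers, but above their median. Gimap1 and Gimap5 lay inside that range only through Emcn, with 1.28. The next highest endothelial marker was Erg, named after its value was seen, with 0.87. Without WT library 3, 7 T cell markers were called, and with at least 10 counts required in every library 8 were. Without WT library 2 or WT library 3, 0 endothelial markers were called. With 1 sST2-KO library left out, 1 was called, lower without sST2-KO library 1 or 2 and higher without sST2-KO library 3.

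The summed level of the 8 members was 334, 219 and 197 CPM in WT libraries 1 to 3, and 433, 535 and 399 CPM in sST2-KO libraries 1 to 3. The T cell markers summed to 22.8, 28.2 and 28.6 CPM in WT and 203, 194 and 244 CPM in sST2-KO libraries. WT library 1 thus had the highest GIMAP sum and the lowest T cell sum of the WT libraries. The endothelial sum was 2270, 2971 and 2957 CPM in WT and 2444, 3527 and 2059 CPM in sST2-KO libraries, which overlap. Between the group means, the sST2-KO value was 1.82 times that of WT for the GIMAP sum, 8.06 times for the T cell sum and 0.979 times for the endothelial sum.

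Set against the T cell sum, the members fell into separate patterns. The ratio of Gimap7 to the T cell sum was 0.0902, 0.0401 and 0.0431 in WT libraries 1 to 3, and 0.053, 0.0692 and 0.0549 in sST2-KO libraries 1 to 3, so the groups overlapped. That of Gimap3 was 0.361, 0.318 and 0.397 in WT and 0.251, 0.234 and 0.239 in sST2-KO libraries, a mean 0.674 times that of WT, without overlap. For the other 6 members the mean ratio in sST2-KO libraries was between 0.16 (Gimap8) and 0.276 (Gimap1) times that of WT. Relative to the endothelial sum, the mean ratio was 1.31 times that of WT for Gimap8, 1.56 times for Gimap4 and 1.7 times for Gimap6. It was 1.53 times for Gimap9, 2.03 times for Gimap5, 2.37 times for Gimap1, 5.93 times for Gimap3 and 8.65 times for Gimap7. In Gimap8, Gimap4 and Gimap9 the groups overlapped, as the ratio of WT library 1 reached into the sST2-KO range. In Gimap6 WT library 1, with 0.051, lay just below the lowest sST2-KO library, with 0.0516.

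**Figure D2:**
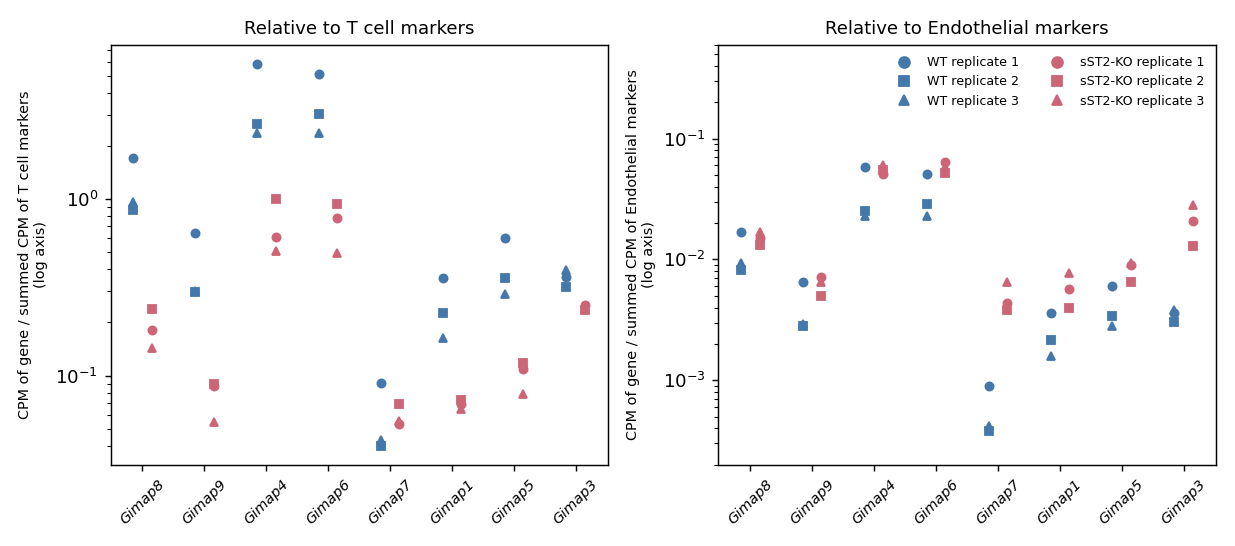
CPM of each GIMAP gene divided by the summed CPM of 13 T cell markers (left) or 16 endothelial markers (right), in every library, on log axes; symbols are libraries. Relative to T cell markers the groups of Gimap7 overlap and the other members are lower in sST2-KO libraries, and relative to endothelial markers Gimap3 and Gimap7 show the widest separation.

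Genes known from resting T cells gave 9 called higher and 0 lower of 14 tested, with a median log2 fold change of 1.62. The 3 genes of this list most abundant in WT BAT, S1pr1, Klf2 and Foxo1, of which S1pr1 and Klf2 are also known from endothelium, had log2 fold changes of -0.09, -0.17 and -0.63, and none passed an adjusted p of 0.05. Ets1, a transcription factor named after its value was seen, had 91.2 ± 11.3 CPM in WT and 165 ± 42.9 CPM in sST2-KO BAT (SD, n = 3 each). Its log2 fold change was 0.86 (edgeR adjusted p = 0.0426), under the 2-fold limit. Of 15 genes of activated, effector and regulatory T cells, 12 were called higher and 0 lower (median 2.50). Of these 12, 7 had fewer than 10 counts in at least 1 library, and 5 were called where 10 counts were required in every library. Gzmb, a protease of cytotoxic granules, rose from 14.9 ± 2.59 to 440 ± 106 CPM (SD, n = 3 each, edgeR quasi-likelihood adjusted p = 0.00408). Foxp3, which marks regulatory T cells, had 15.5 ± 4.32 CPM in WT and 11.5 ± 0.413 CPM in sST2-KO BAT (edgeR adjusted p = 0.276). In WT BAT its CPM, not scaled by length, lay above that of every T cell marker, of which Lck was highest with 4.65 ± 1.04. The cells that its counts came from were not tested, so they are not read as the level of regulatory T cells. In the NK and innate lymphoid list 7 of 9 genes were called higher (median 1.93). In the B cell list 2 of 4 were (Cd22 and Cd37, named because they were called, median 1.38). Without WT library 3, the counts called higher were 0 for the resting list, 4 for the activated list, 1 for the NK and innate lymphoid list and 0 for the B cell list. Without WT library 2 they were 5, 8, 4 and 0.

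Other lists were less uniform. Of 10 macrophage markers, 1 was called higher (Fcgr1, named because it was called, median of the list 0.99), and 0 were without sST2-KO library 3 or without any 1 of the WT libraries. Their sum was 896, 776 and 641 CPM in WT and 784, 929 and 2852 CPM in sST2-KO libraries, of which library 3 stood far above the others. Of 10 brown adipocyte markers 7 were called lower (median -2.58), and of 10 skeletal muscle markers 1 was called higher (median 4.17), but 10 were without WT library 1 and 0 without WT library 2, WT library 3, sST2-KO library 2 or sST2-KO library 3. Without WT library 3, 1 brown adipocyte marker was called lower, and without WT library 2 it was 2. Among 22 other GTPases, most of them interferon-inducible, 6 were called higher and 0 lower (median 0.90), but without WT library 3 the count was 0, without WT library 2 it was 1 and without sST2-KO library 2 it was 2, and it was 10 with total counts. The most abundant, Gbp2, had 892 ± 110 CPM in WT and 1761 ± 543 CPM in sST2-KO BAT (SD, n = 3 each), and the adjusted p of edgeR was 0.0675. Rac2 and Rhoh, GTPases of blood cells named after their values were seen, had log2 fold changes of 2.51 and 2.00.

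The BCL2 and ATG8 families hold proteins to which GIMAP proteins have been linked. Of 12 such genes, 2 were called higher and 1 lower, and the median log2 fold change was -0.19, and 0.083 with total counts. Those called higher, named for that reason, were Bcl2l11, which encodes the death-promoting protein BIM, with a log2 fold change of 2.02 (standard error 0.32; edgeR quasi-likelihood adjusted p = 0.0137), and Mcl1, a survival gene, with 1.02 (standard error 0.29, adjusted p = 0.0485). Gabarapl1, an ATG8 gene of autophagy and the most abundant of the list in WT BAT, fell from 445 ± 194 to 170 ± 55.8 CPM (SD, n = 3 each, edgeR adjusted p = 0.0418), and with total counts 0 genes of the list were called lower. Without WT library 3, 0 genes of the list were called in either direction. Without WT library 2, sST2-KO library 2 or sST2-KO library 3, 1 was called higher and 0 lower, and without sST2-KO library 1, 1 higher and 2 lower.

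**Figure D3:**
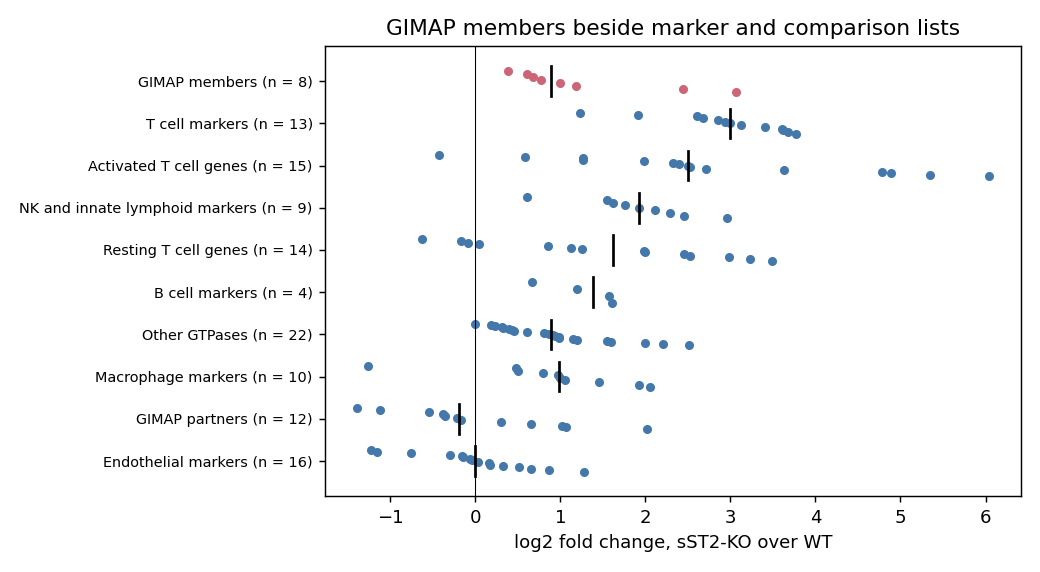
Fitted log2 fold change of sST2-KO over WT for each tested gene of the GIMAP family and of 9 lists; points are genes, spread vertically for visibility, and black bars are medians. The 8 members have a median of 0.89, between the T cell markers (3.00) and the endothelial markers (-0.0044), and Gimap3 and Gimap7 are the only members above 2.

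The genes beside the cluster were examined to see whether they moved with it. Of 16 protein-coding genes, 8 on either side, 11 were matched in the table and 10 were tested. Of these, 2 were called higher and 1 lower, and the median log2 fold change was 0.21. AI854703, the gene next to Gimap8, fell from 5.78 ± 1.98 to 1.6 ± 0.616 CPM (SD, n = 3 each, log2 fold change -1.84, edgeR quasi-likelihood adjusted p = 0.0282). Zfp775 and Repin1, further out, had log2 fold changes of -0.19 and -0.05. On the far side of Gimap3, Tmem176b and Tmem176a, which encode membrane proteins of myeloid cells, had 0.54 and 0.47, and Gpnmb and Malsu1 had -0.33 and -0.37, and none of these 4 passed an adjusted p of 0.05. Aoc1 had 1 count in all 6 libraries. The genes called higher were Rarres2, which encodes the adipokine chemerin, with a log2 fold change of 1.52 (edgeR adjusted p = 0.0168), and Lrrc61, with 1.60 (adjusted p = 0.0153). Atp6v0e2 had 1.14 (adjusted p = 0.125). The ends of Lrrc61 and Rarres2 overlap on opposite strands, and reads from that stretch cannot be told apart in a library that does not keep the strand.

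**Figure D4:**
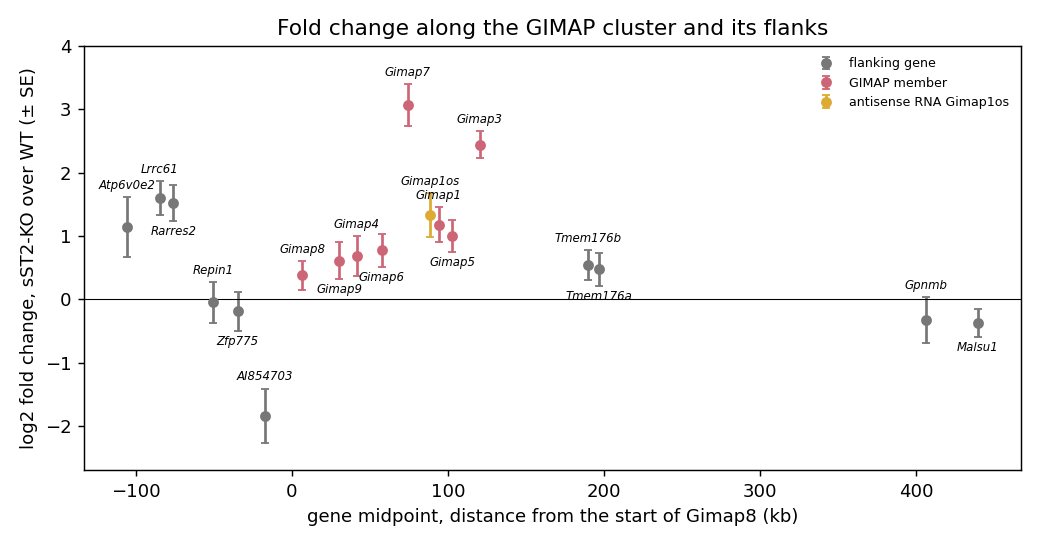
Fitted log2 fold change of sST2-KO over WT, with its standard error, for the tested genes of the GIMAP cluster and its flanks, by distance of the gene's midpoint from the start of Gimap8 in kb. The 8 members lie above 0, from 0.38 for Gimap8 to 3.07 for Gimap7, while the nearest gene on the left, AI854703, lies at -1.84 and the nearest tested on the right, Tmem176b, at 0.54.

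Inside the cluster, Gimap1os, a long noncoding RNA antisense to Gimap1, had 25, 18 and 13 counts in WT libraries 1 to 3, and 53, 51 and 46 counts in sST2-KO libraries 1 to 3. Its log2 fold change was 1.33 (standard error 0.35), beside 1.18 for Gimap1. Exons of Gimap1os cover 1335 bases, or 39.1%, of the exonic length of Gimap1, so reads there cannot be assigned to either gene by sequence, and both values are uncertain. The annotation also holds Gm28053, a gene model on the same strand as Gimap7, Gimap1 and Gimap5 that shares 81, 198 and 153 exonic bases with them in that order. It was not matched in the table.

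Members could also share reads through their likeness in sequence. Of all stretches of 50 bases in the transcripts of Gimap3, 5.24% also occur in Gimap5, and 4.24% of those of Gimap5 occur in Gimap3. No such stretch was shared between any other pair of members. Stretches that also occur in genes outside the family made up 6.06% of those of Gimap1, 2.59% of Gimap3, 2.39% of Gimap5 and 1.39% of Gimap7. They made up 0.144% of those of Gimap6 and less in Gimap4, Gimap8 and Gimap9. The part of shared reads in the values of the members was not tested.

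The genes whose levels were most like the family were sought among the 11612 genes whose mean log2 CPM reached 2, by the correlation with the mean of the standardized log2 CPM of the members over 6 libraries. The highest were Klf6 (r = 0.992), Atm (0.991), Zfp382 (0.987), Cpne8 (0.986), Tmed8 (0.986), Arhgef3 (0.986), Cd200 (0.985), Slx4 (0.985), Myo1h (0.983) and Tmem159 (0.982). With 6 libraries that differ by group, 471 genes had an r above 0.9, so these names are a description. Klf6, a zinc finger transcription factor, had 166 ± 42.2 CPM in WT and 353 ± 51.2 CPM in sST2-KO BAT (SD, n = 3 each). Cd200, a surface protein of endothelium and lymphocytes, had 25.3 ± 11.8 and 75.3 ± 23.6 CPM. By deviations from the group means the closest were Cdc45 (0.990), Nfat5 (0.989), Nxpe4 (0.988), Rnf41 (0.982) and A930015D03Rik (0.980), whose log2 fold changes lay between -0.53 and 0.64.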

How the data were processed

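RNA-seq was performed by the authors on poly-A-selected RNA of 6 BAT samples as paired-end reads. The labels name an NEBNext Ultra kit that does not keep the strand. Reads were aligned to mm39 with HISAT2 (2.2.1 in the submitters' processing notes) and counted with htseq-count, whose version, annotation and strand setting are not given in the sources used here. The deposited counts per gene symbol are not normalized, and every sample column was used. Groups and replicate numbers came from the sample labels.

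The count model was fitted with edgeR 4.0.16 (R 4.3.3). Genes were filtered by filterByExpr (14542 of 35976 kept) and libraries scaled by TMM. The quasi-likelihood test had genotype as its single term, and p-values were adjusted by Benjamini-Hochberg over all genes tested. Calls needed both 0.05 after adjustment and more than 2-fold. The standard error is the log2 fold change divided by the square root of F. CPM use the TMM-scaled library sizes, and log2 CPM a prior count of 2. Positions and exonic lengths are from GENCODE vM39 on GRCm39, the build of the files. No protein sequences were used here.

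The members and all lists were chosen with earlier results of these data known. The named genes are the members, other Gimap symbols, the 10 and 5 genes most like the family, the 3 most abundant of a list and the neighbors of the cluster, and the text says where others were named after their values were seen. The alternatives were DESeq2 1.42.0, other scalings and filters, robust estimation, a block for the library number and leaving out each library. Between libraries of a group, chi-square over its degrees of freedom was 36.6 to 104, far above sampling noise. The steps were also run on simulated counts, with the same dispersion for every gene. That run does not copy the spread between these libraries, so it does not check the calls made here. For 1 value in 3 and 3 libraries, 0.1 is the smallest two-sided p of an exact permutation test.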

Additional observations from a re-analysis of the deposited data

How the results depend on the processing

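The log2 fold change of every member stayed positive in the main setting and in all 15 alternatives. The settings of unadjusted p values and of no minimum fold use the main fit, so their fold changes are the same by construction. The count of 3 members called higher was 3 with DESeq2, RLE size factors, robust estimation and unadjusted p values and 4 without a filter, with at least 10 counts in every sample and without a minimum fold. It was 5 with total counts, which raised the share of higher genes among all called from 56% to 72.7% (1840 higher and 691 lower in place of 1315 and 1033). With a library left out it ranged from 1 (without WT library 3) to 4, and all genes called higher ranged from 36 to 1383. Under the replicate block (library number as a term), 0 members and 0 genes were called by edgeR. At an unadjusted p under 0.05 and more than 2-fold, 1688 genes were then higher and 1325 lower. DESeq2, without the block, called 1676 higher and 1318 lower at an adjusted p under 0.05. At an unadjusted p under 0.05 its counts were 2114 and 1574, also at more than 2-fold. With the block the log2 fold changes were 2.44 for Gimap3 and 3.09 for Gimap7. The correlations of same-numbered libraries, -0.058, 0.215 and -0.312, give no sign that equal numbers mark paired animals. The log2 ratio of the GIMAP sums was 0.87 and moved to 1.27 with the mean of log2 CPM, which weights the members equally, and relative to the T cell markers it was -2.17 and moved to -1.58. Relative to the endothelial markers it was 0.86, against 1.27 with the mean of log2 CPM and 1.31 without WT library 1. Depth limits Gimap7 most, with 10 to 22 counts in WT libraries. The causes were not tested.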
